A study of Sus scrofa with 8 samples.

Results

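The complement and coagulation genes described here were taken from a list of 54 gene symbols, and a row of the table of all libraries was a member where its gene name was on that list. Of the 54 symbols, 46 were present, and they held 51 of the 18975 rows of the table. F12, MASP2 and VTN had 2 rows each and PROS1 had 3. The 8 symbols without a row of that name were C1QB, C1S, C3, C4A, C4B, CFB, F11 and BDKRB2. RNA-seq was performed on heart of male pigs aged 6 months in 4 groups with 2 libraries each: Tibetan pigs raised in the highlands (TH), Tibetan pigs raised in the lowlands (TL), Yorkshire pigs raised in the highlands (YH) and Yorkshire pigs raised in the lowlands (YL). The comparisons ask how the hearts of a highland breed and of a lowland breed differ, and how each breed differs between altitudes. RNA of 4 pigs went into each library, so replicate error here is the variation from pool to pool, and p-values measure only that. Breed and altitude were the only labels that differed between groups, and the labels do not give the part of the heart that was sampled. In whole tissue, fewer cells of a type and less RNA per cell cannot be told apart.

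Complement is a set of plasma and cell-surface proteins that mark and lyse microbes and damaged cells. The classical pathway starts with C1q bound to the proteases C1r and C1s, the lectin pathway with MASP1 and MASP2, and both cleave C4 and C2 to form the enzyme that activates C3. C3 and factor B make up the alternative pathway, which properdin (CFP) stabilises, and C5 to C9 build the membrane attack complex. Coagulation proceeds from tissue factor (F3) through a chain of proteases to thrombin (F2), while antithrombin (SERPINC1), protein C (PROC) and protein S (PROS1) restrain it and plasmin dissolves the clot. Kininogen (KNG1) links both systems to the vasodilator bradykinin. Most of these plasma proteins are made by the liver, whereas C1q is known mainly from macrophages and tissue plasminogen activator (PLAT) and factor VIII (F8) mainly from endothelial cells.

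The unit is FPKM, fragments mapped to a gene per kilobase of its transcript, scaled by the library's mapped fragments, and 15687000 to 26723000 reads per library fell on genes. The sum of FPKM ranged from 1563940 in YL2 to 8559100 in TH1, with 57.7% to 87.6% of the sum on mitochondrial genes. The summed FPKM of the 11 measured cardiomyocyte markers was 16953 to 45060, with the lowest sum in YL2. The titles and breed of YL1 and YL2 place them in YL, although their descriptions point to the file of TL. YL2 stood apart: the 17 measured kidney markers summed to 9043 FPKM there and to 1.58 to 18.1 FPKM in the other libraries, and UMOD, which marks the loop of Henle, reached 947 FPKM against at most 0.811. For that reason fold changes that involve YL are given with and without YL2. TH1 was the lowest library for the fibroblast markers, at 202 against 244 to 830 FPKM. Macrophage markers (11 of 12 measured) summed to 92.7 and 103 FPKM (TH), 100.2 and 94.0 (TL), 131 and 168 (YH) and 109 and 83.0 (YL). Of the macrophage markers, CD163 and MARCO stayed at or below 0.0777 and 0.376 FPKM in every library.

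Of the 51 rows, 13 had a mean of at least 10 FPKM, 22 lay between 1 and 10 and 16 were below 1 FPKM. These means include YL2, and through that library alone SERPINF2 and KNG1 are among the 13 and CPB2, PROC, F2 and SERPINC1 among the 22. The most abundant was CLU with a mean of 287 FPKM, followed by CD59 with 98.1, SERPING1 with 59.1, C1QC with 35.8, C1R with 32.5, A2M with 32.2 and C1QA with 29.1 FPKM. FPKM is a value per length, but for A2M and CLU the ratio of FPKM to read count was not constant over the libraries, as given below, so their place in this order depends on the unit. Next came PROS1, an inhibitor of coagulation like A2M, with 28.1 and 24.8 FPKM in its higher rows, and then F2R, the thrombin receptor, with 14.2 FPKM. PLAT and F8 had means of 11.6 and 9.28 FPKM. Most liver-made factors were hardly read outside YL2. In the 7 other libraries F5, F7, C5, C6, C8A, C8B, PROC, PLG, CPB2, SERPINA5, SERPINF2 and KNG1 each stayed below 0.4 FPKM.

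**Figure D1:**
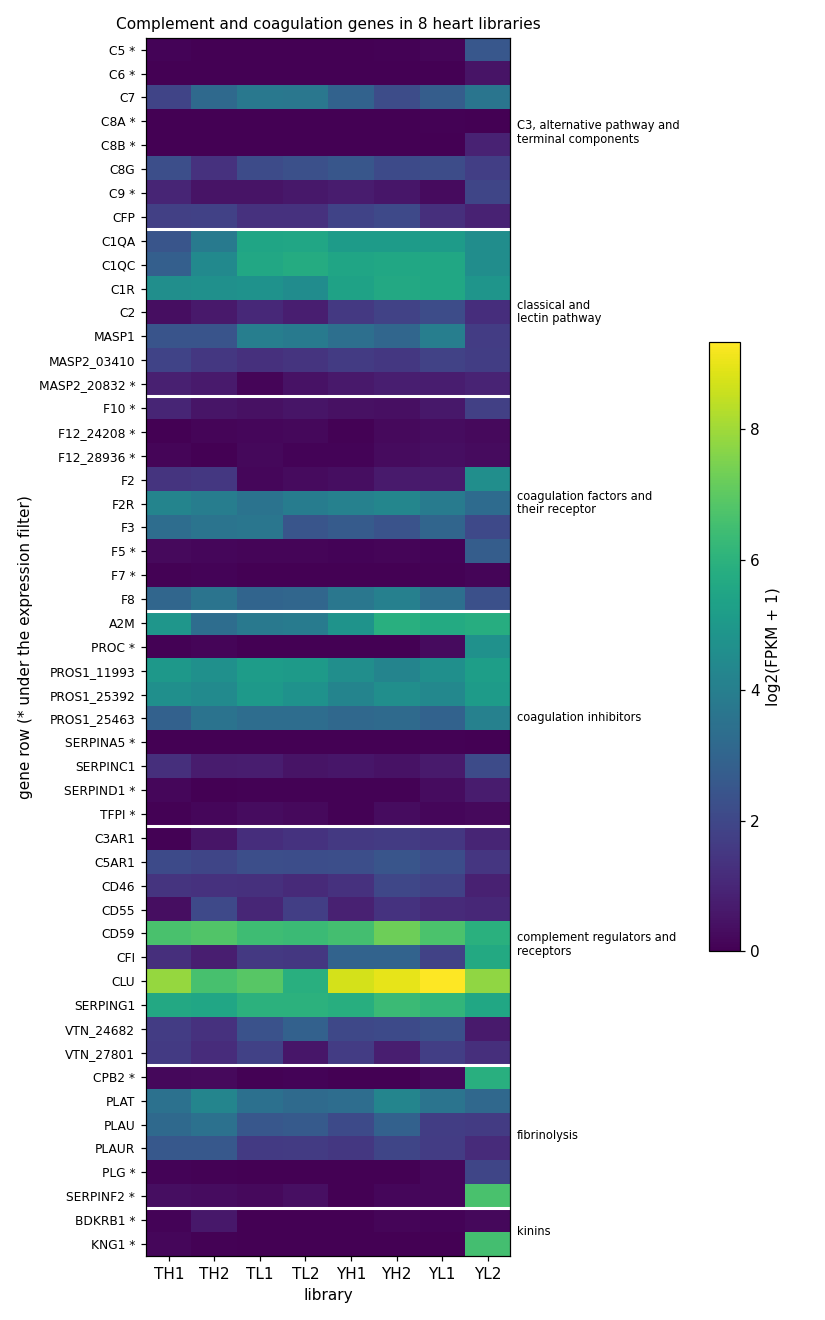
Heat map of log2(FPKM + 1) of the 51 rows (vertical axis, ordered by role) in the 8 libraries (horizontal axis); a star marks a row that reached 1 FPKM in fewer than 2 libraries. CLU, CD59 and SERPING1 are the brightest 3 rows in the 7 libraries other than YL2, and CPB2, SERPINF2 and KNG1 are bright in YL2 only, at 58.8, 100.3 and 91.4 FPKM.

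The 4 groups were compared with limma on log2(FPKM + 1) in 1 fit of all 8 libraries, a scale that shrinks the differences of genes at a few FPKM. The filter of at least 1 FPKM in at least 2 libraries left 31 of the 51 rows (28 symbols), and 1 of them, SERPINC1, would not have passed without YL2. To be called, a gene needed a log2 fold change of more than 1 in either direction and a Benjamini-Hochberg adjusted p below 0.01. No member was called in any of the 7 comparisons (limma). The share of all 11913 genes called was 0.0336% in TH against YH, 0.00839% in TL against YL, 0.0504% in TH against TL, 0% in YH against YL, 0.0336% for the interaction, 0.0504% for the average over both breed comparisons and 0.0336% for the average over both altitude comparisons. At an unadjusted p under 0.05 and any fold change, 8 members passed in TH against YH (all genes 16.2%), 3 in TL against YL (8.94%), 5 in TH against TL (11.3%), 3 in YH against YL (5.97%), 4 for the interaction (10.9%), 8 for the breed average (13.5%) and 7 for the altitude average (7.22%). As shares of the 31 members these are 25.8%, 9.68%, 16.1%, 9.68%, 12.9%, 25.8% and 22.6%. C2, F2 and SERPINC1 passed the filter through the groups where they were high, and over the other 28 members 7 passed in TH against YH (25.0%) and 7 for the breed average (25.0%), with the other counts as given. With 2 libraries per group, an exact permutation test of a single gene cannot go below p = 0.333, so the tests given are those of the fit that pools the spread of all groups. The comparisons share libraries (TH enters TH against YH and TH against TL, for example), so their values are not independent of each other.

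As a list the members were spread around no change. The median log2 fold change of the 31 members was -0.20 in TH against YH (all genes -0.03), 0.16 in TL against YL (0.02), 0.01 in TH against TL (-0.02) and 0.29 in YH against YL (0.03). Without YL2 the medians of the comparisons that use YL moved to -0.09 in TL against YL and -0.01 in YH against YL, so their sign changed. The breed average had a median of -0.08, or -0.18 without YL2, and the altitude average -0.06, or -0.02 without YL2. The FPKM ranges of the groups did not overlap for 19 members in TH against YH (52.5% of all genes), 14 in TL against YL (41.5%), 22 in TH against TL (48.5%) and 10 in YH against YL (36.3%). As shares of the 31 members these are 61.3%, 45.2%, 71.0% and 32.3%. Over the 28 members that exclude C2, F2 and SERPINC1, which the filter favoured, the counts are 16, 12, 20 and 8. When the 4 libraries of each breed were set against each other, C1R, C2 and CFI had no overlap, which is 9.68% of members and 8.03% of all genes tested, and 2 of the 28 members that exclude C2, F2 and SERPINC1. When highland and lowland libraries were compared in that way, CFP and F2R had none, which is 6.45% of members and 2.69% of all genes.

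In the classical and lectin pathway, C1QA and C1QC, which encode chains A and C of C1q, were lower in TH than in the other groups. C1QA (ENSSSCG00000003524, Sscrofa10.2 chromosome 6, 74609911 to 74612993) had 4.49 and 13.1 FPKM (TH), 44.1 and 45.5 (TL), 33.9 and 34.1 (YH) and 34.3 and 22.9 (YL). All 6 libraries of the other groups lay above both TH libraries, and TH1 was below TH2. The log2 difference was -2.38 (SE 0.44, limma adjusted p = 0.179) against TL and -2.00 (SE 0.44, limma adjusted p = 0.128) against YH. With 1 library left out, the difference against TL ranged from -3.06 to -1.70. The altitude difference of the Tibetan pigs minus that of the Yorkshire pigs, the interaction, was -2.65 (SE 0.62, limma adjusted p = 0.296), or -2.37 (SE 0.66, limma adjusted p = 0.285, 0.0465 to 0.897 over all alternatives) without YL2. The TH to YH difference of C1QA was -1.32 without TH1 and -2.67 without TH2, with limma adjusted p from 0.0419 to 0.588 over all alternatives. C1QC (ENSSSCG00000003525, chromosome 6, 74616232 to 74621248) showed the same order, with 6.17 and 20.4 FPKM (TH), 47.9 and 53.3 (TL), 44.0 and 46.4 (YH) and 45.6 and 22.9 (YL). Again the TH libraries were the lowest 2 of the 8, and YL2 was near TH2. The difference was -2.05 (SE 0.53, limma adjusted p = 0.261) against TL and -1.90 (SE 0.53, limma adjusted p = 0.188) against YH. Without TH1 these were -1.26 and -1.11, and without TH2 -2.84 and -2.69. The interaction for C1QC was -2.52 (SE 0.76, limma adjusted p = 0.357, and -2.04 without YL2). The reads behind the lowest values were 98 in TH1 for C1QA and 187 for C1QC. Summed macrophage markers in TH overlapped those of TL and YL and were below both YH libraries. Single markers went both ways. CD68 was at 5.39 and 5.95 FPKM in TH against 2.89 and 2.60 in TL, whereas CSF1R was at 1.44 and 2.74 FPKM in TH and at 2.67 to 6.06 FPKM elsewhere, and LAPTM5 was at 2.60 FPKM in TH1 and at 6.57 to 25.8 FPKM in the other libraries. The part of these markers in the C1q values was not tested.

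**Figure D2:**
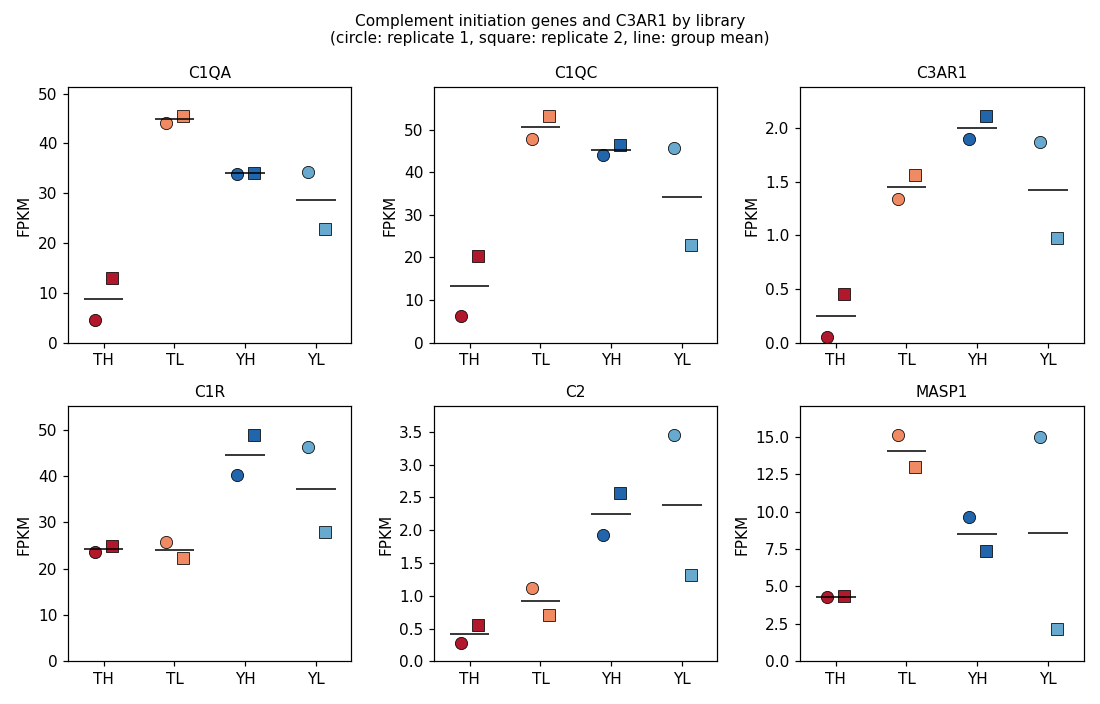
FPKM (vertical axis, starting at 0) of C1QA, C1QC, C3AR1, C1R, C2 and MASP1 in the 4 groups (horizontal axis); circles are replicate 1, squares replicate 2 and lines group means of 2 libraries. C1QA, C1QC and C3AR1 are lowest in TH, C1R and C2 are lower in the 4 Tibetan than in the 4 Yorkshire libraries, and the YL libraries lie apart for MASP1 at 15.0 and 2.18 FPKM.

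C3AR1, the receptor for the C3a fragment, was also lowest in TH, though at a low level. It had 0.0494 and 0.452 FPKM (TH), 1.33 and 1.56 (TL), 1.89 and 2.11 (YH) and 1.87 and 0.975 (YL), and TH1 rested on 1 read and TH2 on 8 reads. Both TH libraries were below the 6 others. C3AR1 reached 1 FPKM in TL, YH and YL1 and in no TH library, so it passed the filter only through libraries where it was high. The TL libraries alone were enough for that, so passing did not depend on YH, but the tests and counts that include C3AR1 carry this limit. The difference between TH and YH was -1.28 (SE 0.27, limma adjusted p = 0.12), and the interaction was -1.32 (SE 0.38, limma adjusted p = 0.352, and -1.05 without YL2). At an unadjusted p below 0.01 with a log2 fold change beyond 1, C1QA, C1QC and C3AR1 were the 3 members that passed in TH against YH (9.68% of members against 4.06% of all genes). Of these, C1QA and C1QC also passed in TH against TL (6.45% against 2.57%) and C1QA for the interaction (3.23% against 2.85%). No member passed this limit in TL against YL, where 2.03% of all genes did, in YH against YL (0.839%) or for the altitude average (0.806%).

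C1R, the protease that C1q activates first, and C2, the protease of the C3-cleaving enzyme, separated the breeds rather than TH alone. C1R (ENSSSCG00000000675, on an unplaced scaffold) had 23.6 and 24.9 FPKM (TH), 25.9 and 22.3 (TL), 40.3 and 48.9 (YH) and 46.4 and 27.9 (YL). The highest Tibetan library was 25.9 FPKM and the lowest Yorkshire library 27.9 FPKM, and that library was YL2. The breed average of C1R was -0.71 (SE 0.20, limma adjusted p = 0.208), and -0.89 (SE 0.15, limma adjusted p = 0.0643, 0.0395 to 0.634 over all alternatives) without YL2. C2 (ENSSSCG00000001422, chromosome 7, 27778159 to 27819252) had 0.281 and 0.555 FPKM (TH), 1.12 and 0.709 (TL), 1.93 and 2.58 (YH) and 3.46 and 1.31 (YL). The ranges were 0.281 to 1.12 FPKM in Tibetan and 1.31 to 3.46 FPKM in Yorkshire libraries. C2 reached 1 FPKM in the 4 Yorkshire libraries and in a single Tibetan library, so it passed the filter through the breed where it was high and no test is given for it.

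MASP1, a protease of the lectin pathway, had 4.31 and 4.33 FPKM (TH), 15.1 and 12.97 (TL), 9.64 and 7.38 (YH) and 15.0 and 2.18 (YL). TH was low and tight, while YL1 equalled the TL libraries and YL2 was the lowest of all. TH against TL gave -1.50 (SE 0.66, limma adjusted p = 0.458), and in the fit without YL2, whose spread then no longer entered, the same difference had an SE of 0.20 and a limma adjusted p of 0.0556 (0.0381 to 1 over all alternatives). The altitude average of MASP1 was -0.54 with YL2 and -1.13 without it. MASP2 had a row with 1.45 to 2.64 FPKM and a row that stayed below 1 FPKM in every library. Over the 5 tested rows of the classical and lectin pathway other than C2, 4 were lower in TH than in YH, with a median of -0.85, and 3 were lower in TH than in TL, with a median of -1.50. When each library was scaled to the same FPKM sum, the median of all genes moved to -0.50 in TH against YH and -0.27 in TH against TL, and relative to it MASP2 stayed higher, by 0.22 and 0.26, while C1R against TL went from 0.01 to -0.23. In TL against YL 3 were higher and 2 lower (median 0.62), and without YL2 2 were higher and 3 lower (median -0.09). In YH against YL 4 were higher and 1 lower (median 0.30), and without YL2 all 5 were lower (median -0.06).

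Among the symbols without a row of that name, 4 were found by Ensembl ID under other names and are given beside the members, not counted with them. C3, the central component that both convertases cleave, had 0.347 and 5.52 FPKM (TH), 5.70 and 3.62 (TL), 7.13 and 8.81 (YH) and 5.02 and 2.84 (YL). TH1 was thus far below every other library, on 26 reads, while TH2 lay within the range of TL. C4A was at 0.509 to 2.70 FPKM in the first 7 libraries and at 11.8 FPKM in YL2. CFB was at 0.454 FPKM in YL2 and at most 0.240 FPKM elsewhere, and BDKRB2 at 1.23 FPKM in YL2 and at most 0.123 FPKM elsewhere.

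The complement regulators and receptors formed the most abundant group, with 10 tested rows of 9 symbols. CLU, clusterin, which binds the assembling membrane attack complex and also acts as a chaperone, was lower in Tibetan than in Yorkshire hearts. CLU (ENSSSCG00000009668, chromosome 14, 12516231 to 12531189) had 229 and 96.3 FPKM (TH), 121 and 58.9 (TL), 423 and 501 (YH) and 645 and 219 (YL). The 3 highest libraries were YL1, YH2 and YH1, and the TH1 value of 229 FPKM lay just above the YL2 value of 219 FPKM. The breed average was -1.88 (SE 0.46, limma adjusted p = 0.154), and -2.27 (SE 0.40, limma adjusted p = 0.0652, 0.00029 to 0.504 over all alternatives) without YL2. In the separate comparisons CLU gave -1.62 (SE 0.64, limma adjusted p = 0.291) for TH against YH and -2.14 (SE 0.64, limma adjusted p = 0.381, and -2.92 without YL2) for TL against YL. The former was -2.25 without TH1 and -1.004 without TH2, and the latter ranged from -2.92 to -1.37 with 1 library left out. The deposited table also holds a scaled read count per library, in which the breeds did not overlap. CLU had scaled counts of 4611 and 4095 (TH), 5200 and 2422 (TL), 18567 and 21557 (YH) and 21953 and 8193 (YL). On log2(scaled count + 1) the breed average was -2.06 (SE 0.37, limma adjusted p = 0.0633, 0.00029 to 0.504 over all alternatives).

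A2M, a broad protease inhibitor of plasma that also inhibits thrombin and plasmin, was also lower on average in Tibetan than in Yorkshire libraries, and the unit decided whether the breeds overlapped. A2M (ENSSSCG00000000660, chromosome 5, 65243775 to 65320386) had 29.0 and 9.15 FPKM (TH), 12.6 and 13.8 (TL), 26.9 and 58.7 (YH) and 50.9 and 56.1 (YL). TH1 at 29.0 FPKM lay above YH1 at 26.9 FPKM, so the breeds overlapped. In scaled counts it had 187 and 398 (TH), 424 and 324 (TL), 763 and 716 (YH) and 829 and 842 (YL), with no overlap. The breed average was -1.58 (SE 0.39, limma adjusted p = 0.159, and -1.55 without YL2) on FPKM and -1.30 (SE 0.26, limma adjusted p = 0.08, 0.0101 to 0.503 over all alternatives) on scaled counts. TH against YH gave -1.23 (SE 0.55, limma adjusted p = 0.334), which was -0.44 without TH2 and -2.01 without TH1. TL against YL gave -1.94 (SE 0.55, limma adjusted p = 0.346, and -1.87 without YL2). The ratio of FPKM to scaled count, which is fixed for a gene whose length is the same in every library, varied 7.11-fold over the libraries for A2M and 2.39-fold for CLU. Over the 8293 genes with enough reads the median of this variation was 1.25-fold, and 12.3% of genes were over 1.5-fold. A2M and CLU were the 2 members that passed an unadjusted p below 0.01 with a log2 fold change beyond 1 for the breed average (6.45% of members against 1.91% of all genes). On scaled counts A2M, C1R, C2, CFI and CLU did not overlap between breeds, 16.1% of members against 7.03% of all genes. That share includes C2, which passed the filter through the Yorkshire libraries where it was high. Without C2, A2M, C1R, CFI and CLU remain.

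**Figure D3:**
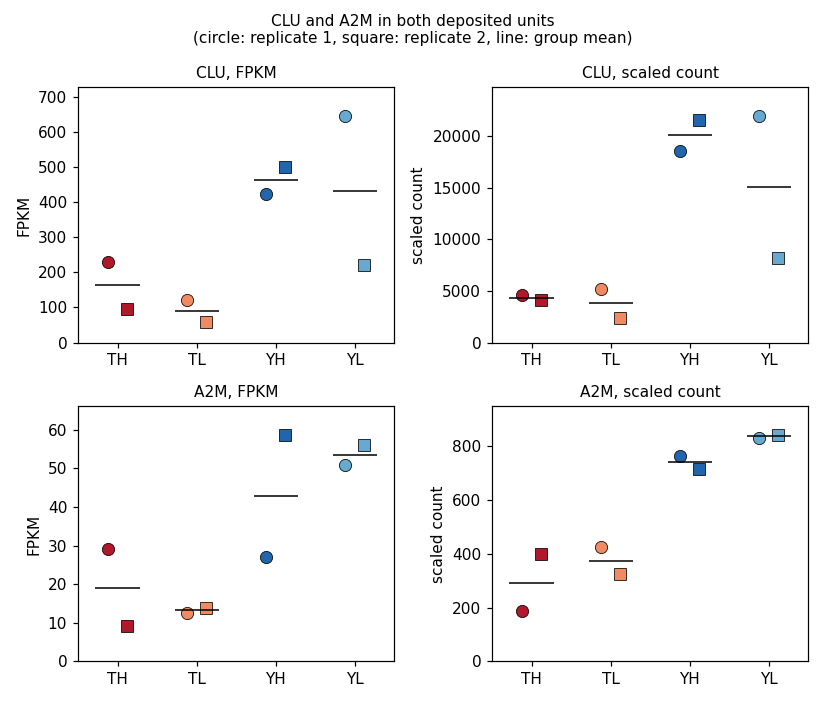
CLU (top) and A2M (bottom) in the 4 groups in FPKM (left) and in scaled counts (right), vertical axes starting at 0; circles are replicate 1, squares replicate 2 and lines group means of 2 libraries. TH1 of A2M is the highest Tibetan value in FPKM, at 29.0, and the lowest in scaled counts, at 187.

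CFI, factor I, the protease that inactivates C3b and C4b, had the third breed pattern, and YL2 decided its size. CFI (ENSSSCG00000009138, chromosome 8, 120517216 to 120554337) had 1.40 and 0.732 FPKM (TH), 1.91 and 1.87 (TL), 6.81 and 6.78 (YH) and 2.62 and 50.4 (YL). Every Tibetan library was below 2 FPKM and every Yorkshire library above 2.6 FPKM, and YL2 was 7.39 times the highest of the others. The breed average was -2.09 (SE 0.75, limma adjusted p = 0.3), and -1.13 (SE 0.17, limma adjusted p = 0.055, 0.00101 to 0.689 over all alternatives) without YL2. TH against YH, which uses no YL library, gave -1.94 (SE 1.06, limma adjusted p = 0.41), and in the fit without YL2 the same difference had an SE of 0.21 and a limma adjusted p of 0.0298, where 1.32% of all genes were under 0.05 with a log2 fold change beyond 1. Over all alternatives that p ranged from 0.0293 to 0.754. YH against YL reversed with YL2, from -0.81 with it to 1.10 without it.

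CD59, which blocks the last step of the membrane attack complex, had 99.3 and 109 FPKM (TH), 86.4 and 80.4 (TL), 93.4 and 154 (YH) and 103 and 59.3 (YL). Its highest library was YH2 and its lowest YL2, and the groups overlapped in TH against YH, where the difference was -0.20 (SE 0.35, limma adjusted p = 0.802). SERPING1, the C1 inhibitor that restrains C1r, C1s and the kinin system, had 48.1 and 45.4 FPKM (TH), 62.4 and 63.8 (TL), 57.4 and 80.4 (YH) and 69.2 and 46.5 (YL). Both TH libraries lay below TL and YH, and YL2 lay between them, and the difference between TH and YH was -0.53 (SE 0.27, limma adjusted p = 0.389). C5AR1, the receptor of C5a, stayed between 1.78 and 4.57 FPKM. The membrane regulators CD46 and CD55 stayed between 0.822 and 2.99 FPKM and between 0.257 and 3.15 FPKM. VTN, vitronectin, which keeps the attack complex out of membranes, had 2 rows. The row ENSSSCG00000024682 had 2.17 and 1.51 FPKM (TH), 4.13 and 6.51 (TL), 3.03 and 3.33 (YH) and 3.82 and 0.601 (YL), with an interaction of -1.72 (SE 0.70, limma adjusted p = 0.445), or -0.93 (SE 0.39, limma adjusted p = 0.397, 0.0224 to 1 over all alternatives) without YL2. The row ENSSSCG00000027801 stayed between 0.468 and 2.52 FPKM. Of the 10 tested rows of this role, 8 were lower in TH than in YH, with a median of -0.44.

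Of the alternative pathway and the terminal components, CFP, C7 and C8G passed the filter. CFP, properdin, which stabilises the alternative convertase, was higher in highland than in lowland hearts of both breeds. CFP (ENSSSCG00000012278, chromosome X, 47326118 to 47335184) had 2.37 and 2.53 FPKM (TH), 1.54 and 1.52 (TL), 2.64 and 3.17 (YH) and 1.37 and 0.858 (YL). The lowest highland library was at 2.37 FPKM and the highest lowland library at 1.54 FPKM. In scaled counts these were 77.4 in TH1 and 74.2 in YL1, and the ratio of FPKM to scaled count varied 1.65-fold for CFP. The altitude average was 0.67 (SE 0.15, limma adjusted p = 0.419), and 0.58 (SE 0.14, limma adjusted p = 0.314, 0.036 to 1 over all alternatives) without YL2, on 55 to 160 reads per library. This was the smallest adjusted p of a member for the altitude average. C7, which anchors the attack complex in the membrane, had 2.77 and 8.07 FPKM (TH), 12.3 and 12.2 (TL), 6.59 and 3.51 (YH) and 5.75 and 11.4 (YL), with -1.18 (SE 0.50, limma adjusted p = 0.441) for TH against TL, which was -0.55 without TH1 and -1.81 without TH2. TL was high and tight and the other groups were spread. C8G stayed between 1.55 and 4.61 FPKM. C5, C6, C8A, C8B and C9 did not pass the filter and each stayed below 1 FPKM outside YL2.

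Of the coagulation factors and their receptor, F3, F8, F2R and F2 passed the filter. F3, tissue factor, which starts coagulation, had 9.23 and 11.2 FPKM (TH), 11.8 and 4.52 (TL), 5.47 and 4.23 (YH) and 7.30 and 3.22 (YL). TH2 and TL1 were highest and YL2 lowest, and TH against YH gave 0.94 (SE 0.47, limma adjusted p = 0.378). F8, the cofactor of factor IXa, had 7.52 and 11.04 FPKM (TH), 6.95 and 7.45 (TL), 11.9 and 15.9 (YH) and 9.61 and 3.80 (YL). YH was the highest group and its lower library was above every other, and YH against YL gave 1.05 (SE 0.40, limma adjusted p = 0.784), or 0.48 (SE 0.30, limma adjusted p = 0.917, 0.0275 to 1 over all alternatives) without YL2. F2R, the thrombin receptor PAR1, had 17.7 and 14.4 FPKM (TH), 10.8 and 14.1 (TL), 16.2 and 18.5 (YH) and 13.6 and 8.52 (YL). Highland and lowland libraries did not overlap, with the lowest highland value at 14.4 FPKM and the highest lowland value at 14.1 FPKM. The altitude average of F2R was 0.49 (SE 0.20, limma adjusted p = 0.656, and 0.34 without YL2), and on scaled counts highland and lowland overlapped. F2, prothrombin, had 1.64 and 1.84 FPKM (TH), 0.134 and 0.195 (TL), 0.257 and 0.579 (YH) and 0.585 and 23.7 (YL). Outside YL2 it was highest in TH, on 70 and 83 reads. Without YL2 it would pass the filter through the TH libraries alone, so no test of TH is given for it. F12 and F7 stayed below 1 FPKM in every library, and F10 and F5 in every library but YL2.

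**Figure D4:**
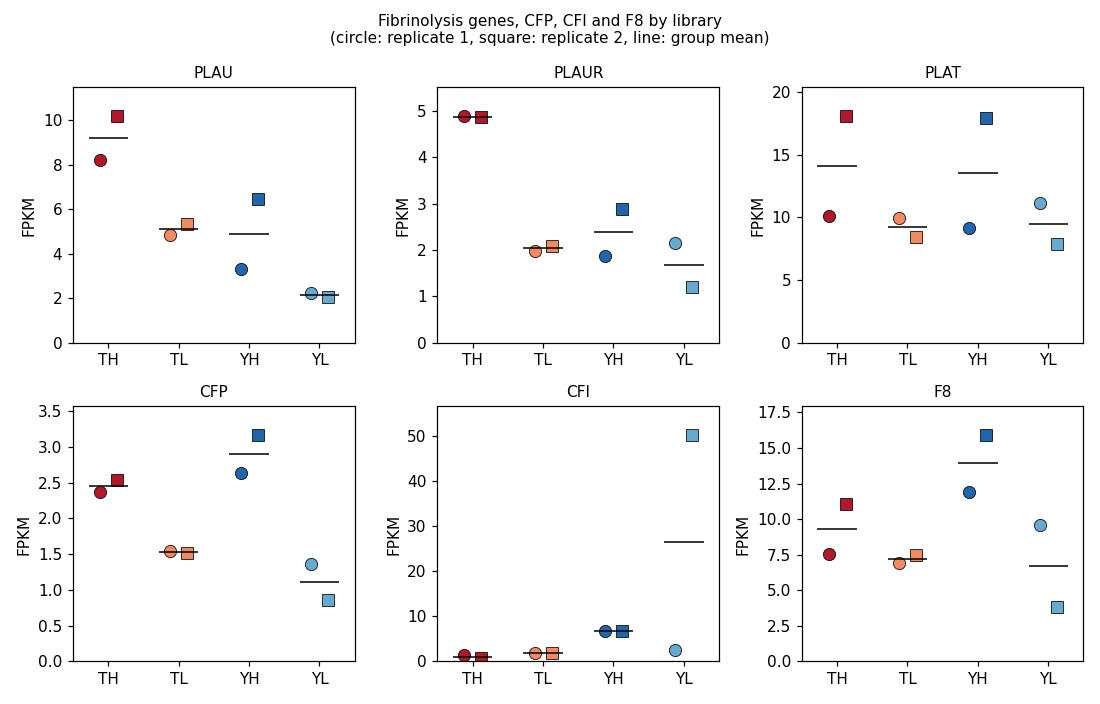
FPKM (vertical axis, starting at 0) of PLAU, PLAUR, PLAT, CFP, CFI and F8 in the 4 groups (horizontal axis); circles are replicate 1, squares replicate 2 and lines group means of 2 libraries. PLAU and PLAUR are highest in TH, CFP is higher in the 4 highland libraries than in the 4 lowland libraries, and CFI is at 50.4 FPKM in YL2.

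In fibrinolysis, PLAU and PLAUR were highest in TH. PLAU encodes urokinase, which turns plasminogen into plasmin, and PLAUR its receptor on the cell surface. PLAU (ENSSSCG00000010312, chromosome 14, 82755601 to 82761495) had 8.23 and 10.21 FPKM (TH), 4.86 and 5.32 (TL), 3.29 and 6.48 (YH) and 2.23 and 2.06 (YL). Both TH libraries were above the 6 others and both YL libraries were the lowest. The breed average was 0.90 (SE 0.21, limma adjusted p = 0.14, and 0.88 without YL2) and the altitude average 0.80 (SE 0.21, limma adjusted p = 0.45, and 0.78 without YL2). Its breed average had the smallest adjusted p of a member in that comparison. PLAUR (ENSSSCG00000003065, chromosome 6, 46349480 to 46365407) had 4.90 and 4.87 FPKM (TH), 1.99 and 2.09 (TL), 1.88 and 2.88 (YH) and 2.15 and 1.21 (YL). The TH libraries were again the highest 2. TH against TL gave 0.95 (SE 0.26, limma adjusted p = 0.268) and TH against YH 0.82 (SE 0.26, limma adjusted p = 0.219). When each library was scaled to the same FPKM sum, the differences between TH and YH were 0.02 for PLAU and 0.06 for PLAUR, against a median of -0.50 over all genes under that scaling. PLAT, tissue plasminogen activator, had 10.1 and 18.1 FPKM (TH), 9.97 and 8.42 (TL), 9.17 and 17.9 (YH) and 11.1 and 7.84 (YL). TH2 and YH2 were near 18 FPKM and all others at or below 11.1 FPKM, so the spread within the highland groups exceeded the difference between groups, 0.47 (SE 0.28, limma adjusted p = 0.796, and 0.36 without YL2) for the altitude average. All 3 tested members of this role were higher in TH than in YH and in TL, with medians of 0.82 and 0.74, but PLAT against YH was at 0.07, and at equal FPKM sums it was -0.14 relative to the median of all genes.

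Among the coagulation inhibitors, the 3 PROS1 rows were at 17.7 to 36.8 FPKM, 17.7 to 34.0 FPKM and 6.48 to 16.3 FPKM. PROS1 encodes protein S, the cofactor of activated protein C, and reads of 1 transcript could be split over its rows. The row ENSSSCG00000011993 had 30.2 and 24.6 FPKM (TH), 35.2 and 32.9 (TL), 23.6 and 17.7 (YH) and 23.8 and 36.8 (YL), with an altitude average of -0.41 (SE 0.20, limma adjusted p = 0.74, and -0.26 without YL2). YL2 was the highest library in each of the 3 rows. The row ENSSSCG00000025392 had an altitude average of -0.32 (SE 0.22, limma adjusted p = 0.814, and -0.13 without YL2). TFPI, the inhibitor of tissue factor, had 5 reads or fewer in every library and at most 0.251 FPKM, so a difference between groups was not detectable at this depth. SERPINA5 had 2 reads or fewer.

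In YL2 alone, several genes of plasma proteins were read at high levels. Of the 51 rows, 15 were more than 2 times above every other library in YL2, against 13.3% of all genes listed, and 3 of them (CFI, F2 and SERPINC1) were among the 31 tested, against 6.48% of all genes tested. SERPINF2, the plasmin inhibitor, was at 100.3 FPKM in YL2 and at most 0.301 FPKM elsewhere. KNG1, the precursor of bradykinin, was at 91.4 FPKM against at most 0.106 FPKM. CPB2, which removes plasminogen binding sites from fibrin, was at 58.8 FPKM against at most 0.172 FPKM. These 3 genes were thus read in a single one of the 8 libraries at more than trace level. PROC was at 25.6 FPKM against 0.224, F2 at 23.7 against 1.84, F5 at 5.82 against 0.167 and C5 at 4.72 against 0.0858 FPKM. F10, C9, PLG and SERPINC1 reached 2.40, 2.85, 2.90 and 3.37 FPKM, and C8B, SERPIND1 and C6 0.861, 0.640 and 0.423 FPKM. In all, 9 rows reached 1 FPKM in YL2 only. YL2 also held the lowest value of 12 of the 31 tested members (38.7%), against 22.5% of all genes tested, among them CD59, F8, F2R, F3, CFP and PLAUR. The kidney markers moved with this library as given above. The hepatocyte markers (13 of 15 measured) summed to 91.2 FPKM in YL2 and to 18.7 to 39.5 FPKM elsewhere. Single hepatocyte markers went both ways. TF was at 42.2 and TTR at 14.3 FPKM in YL2, and AHSG, AMBP, FETUB, ITIH1 and RBP4 were also highest there. APOA1, APOH, CYP2E1, HP and ITIH3 were not highest in YL2, with HP at 1.29 FPKM in YL2 and 11.7 FPKM in YL1. ALB was at 0.924 FPKM in YL2 and 0.614 to 4.17 elsewhere. YL1 was at or below 0.602 FPKM for each of the 15 rows but CFI. The kinin receptor BDKRB1 was at most 0.505 FPKM in every library.

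**Figure D5:**
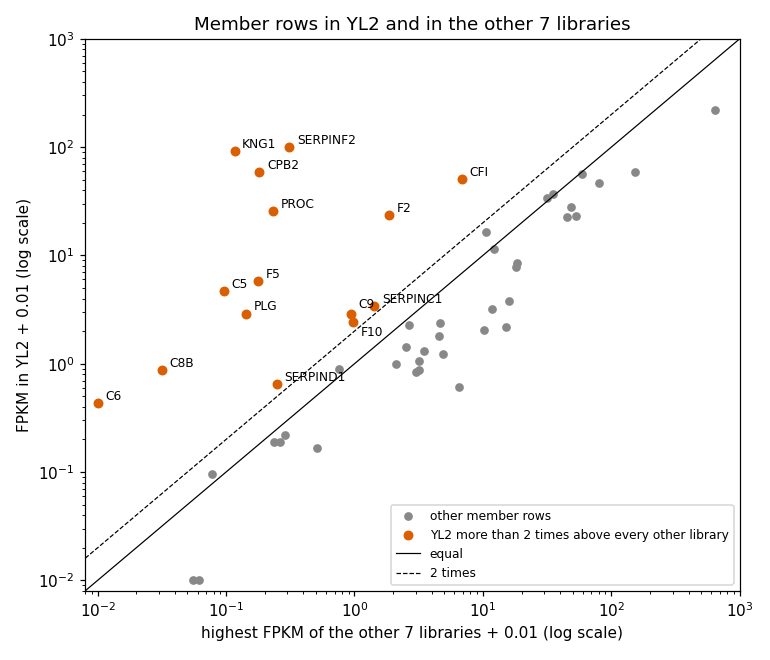
FPKM + 0.01 in YL2 (vertical log axis) against the highest FPKM + 0.01 of the other 7 libraries (horizontal log axis) for the 51 rows; the solid line marks equal values, the dashed line 2 times, and orange points lie above it. The 15 orange points include KNG1, SERPINF2, CPB2 and PROC, which are below 0.4 FPKM in the other libraries.

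Of 34 further genes of these pathways, 25 had a row of that name (28 rows), 14 rows were tested and none was called in any comparison (limma, adjusted p under 0.01). The number at an unadjusted p under 0.05 was 2 higher and 3 lower in TH against YH, 1 and 1 in TL against YL, 3 and 1 in TH against TL, 2 and 1 in YH against YL, 1 and 2 for the interaction, 2 and 1 for the breed average and 4 and 1 for the altitude average. The shares of all genes in either direction were 16.2%, 8.94%, 11.3%, 5.97%, 10.9%, 13.5% and 7.22%. These counts include rows that passed the filter through libraries where they were high, so no result is read from them. The 2 higher rows in TH against YH were COLEC11 and FCN1. In TL against YL the higher row was COLEC11 and the lower row FGB. FGB reached 1 FPKM only in YL1 (1.21) and YL2 (2.14), which limits every comparison that uses YL. COLEC11, a soluble lectin that starts the lectin pathway, was at 4.03 and 4.05 FPKM (TH), 5.23 and 7.04 (TL), 0.978 and 0.381 (YH) and 0.373 and 1.32 (YL), so the breeds did not overlap. It passed the filter through the Tibetan libraries, where it was high, so no test of the breeds is given for it. FCN1, a lectin of monocytes and neutrophils, was at 2.64 and 2.45 FPKM (TH), 0.195 and 0.414 (TL), 0.431 and 1.58 (YH) and 0.290 and 0.591 (YL). SERPINB2, an inhibitor of PLAU, had its highest values in TH, like PLAU and PLAUR. SERPINB2 was at 291 and 371 FPKM (TH), 79.4 and 139 (TL), 66.9 and 220.1 (YH) and 54.7 and 27.3 (YL). TH1 was the lowest library for VWF at 1.07 FPKM against 6.42 to 25.9 elsewhere and for C4BPA at 4.83 against 20.2 to 49.4 FPKM. C1QA, C1QC, C2, C3AR1 and C3 were lowest in TH1 as well. In all, 7 of the 31 tested members (22.6%) had their lowest value in TH1, against 25.8% of all genes tested, and the part of this library in their values was not tested beyond leaving it out.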

How the data were processed

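Hearts of 8 pools of pigs were sequenced by the study, and per the labels and methods reads were aligned to Sscrofa10.2 (Ensembl release 72) with TopHat2 2.0.9, FPKM computed with Cufflinks 2.1.1 and differential expression with DESeq 1.10.1. The deposited FPKM of each library was the main unit. The authors also deposited a scaled count signal per gene and library, which gave the reads on genes (99.7% to 99.8% of values under 500 reads were whole within 0.02 once the library factor was divided out) and the scaled-count alternative. Reads on genes per library were 26723000 (TH1), 15687000 (TH2), 18213000 (TL1), 22800000 (TL2), 19653000 (YH1), 19643000 (YH2), 18612000 (YL1) and 21456000 (YL2). Columns of group means and ratios, and the 4 tables of single groups, were not used.

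Members and lists were chosen with earlier results of these data known. Genes had to reach 1 FPKM in 2 or more libraries, and the 11913 that did were fitted with limma 3.58.1 (R 4.3.3), 1 mean per group, log2(FPKM + 1), variances following the mean, all 8 libraries. Benjamini-Hochberg adjustment ran over all genes tested. A call needed a log2 fold change of more than 1 in either direction with an adjusted p below 0.01. Replicates share a number only, so libraries were not paired. The average over breeds or altitudes is the mean of both pairwise differences. Members were named where they had the 5 smallest p with a fold change over 1 in a comparison, the 10 highest means, YL2 more than 2 times above every other library, or were A2M; PLAU, PLAUR, PLAT, CFP, F3 and C3 were named after their values were seen. Simulated data were used to test the fit. Alternatives were other pseudocounts, filters, scalings, thresholds and left-out libraries. The scaled-count alternatives were chosen after seeing the data. Summaries and plots used Python 3.11.15, pandas 2.3.3, numpy 2.4.6 and matplotlib 3.10.9. Sequences of the members were not used here.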

Additional observations from a re-analysis of the deposited data

How the results depend on the processing

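The main limits are 2 pools per group, the kidney markers of YL2, the FPKM sum of TH1 and the low depth of members below 1 FPKM. The 36 named fold changes were recomputed in 653 values under the alternatives that could be run. No named fold change passed the threshold in the main fit, so keeping its side means only staying uncalled and does not measure how far sizes moved. Of the 653 values, 641 kept their direction and side of the threshold, 10 passed the threshold only under the alternative and 2, both of CFI in YH against YL, changed sign. CFI gave -0.81 with all libraries, -2.72 to 1.10 with 1 library left out, 1.10 without YL2 and 1.07 on scaled counts without YL2.

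The number of members called (adjusted p under 0.01) was 0 in all 7 comparisons. At an unadjusted p under 0.01 it was 3 in TH against YH, 2 in TH against TL, 1 for the interaction and 2 for the breed average. At equal FPKM sums it was 1 in TL against YL (0.814% of all genes called) and 1 in YH against YL (0.579%), F2 in both, and 2 for the breed average (CFI and CLU, 0.546%). When a library was left out, the number ranged from 0 to 3 in TL against YL, 0 to 2 in YH against YL, 0 to 2 for the interaction, 0 to 2 for the breed average and 0 to 2 for the altitude average, and each of the highest counts came without YL1, when YL2 stood for YL alone (CFI, F2 and MASP1). Without YL1, 2.56%, 2.56%, 1.28%, 1.91% and 1.39% of all genes were called in these comparisons. A lone library is then assumed to vary like the other groups.

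The member median moved by more than the 0.31 spread between libraries in these cases. At equal FPKM sums it was -0.70 in TH against YH and -0.42 for the breed average, where the median of all genes moved to -0.50 and -0.39. Without the filter it was -0.10 in YH against YL and 0.14 for the interaction. With a mean of at least 10 FPKM it was -0.64 for the breed average over 13 rows. On scaled counts without YL2 it was -0.22 in TL against YL and -0.093 in YH against YL. With libraries left out the medians ranged from -0.38 to -0.20 in TH against YH, -0.13 to 0.12 in TH against TL, -0.09 to 0.33 in TL against YL, -0.01 to 0.55 in YH against YL, -0.42 to 0.02 for the interaction, -0.18 to 0.02 for the breed average and -0.19 to 0.06 for the altitude average. The cause of these shifts was not tested.

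Deviations of libraries with the same replicate number correlated between -0.084 and 0.12 over pairs of groups. With a replicate block the number of members called was 0 in each comparison and the median of TH against YH was -0.20, which a block cannot change in this balanced design. Count tests of edgeR and DESeq2 were planned and not run.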
